A study of Mus musculus with 16 samples.

Results

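The effect of an EMP3 mutation on transcript levels was compared between the spleen and the thymus of the same 3 mice. The comparison used 12 of the series' 16 two-colour cDNA arrays: a dye-swapped pair for each tissue of EMP3 mutant mice 1, 3 and 4, out of 4 mutant mice. Every mouse was male and 17 weeks old. On each array the mutant RNA was hybridised against a pool of wild-type RNA of the same tissue, sex and age. The pools of both tissues came from the same wild-type mice, 4 of them by the channel labels and the design text, whereas the labelling protocol speaks of 6. For each of 20794 probes the mean of a mouse's array pair was its log2 ratio, and the thymus ratio was subtracted from the spleen ratio within the mouse. A positive difference therefore means a higher mutant-to-wild-type ratio in spleen than in thymus. Mouse 2 was left out because its 2 thymus arrays were almost exact opposites (r = -0.922 over probes). Its spleen arrays were kept as a set of values that did not enter the test.

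EMP3 is a small protein that spans the membrane 4 times and belongs to the family of the peripheral myelin protein PMP22. Members of this family are studied for their part in cell contacts, growth control and the makeup of the cell surface. The spleen filters blood and holds mature lymphocytes, macrophages and blood-forming cells, while the thymus is the organ in which T cells mature on a scaffold of epithelial cells. The labels do not state what kind of mutation the mice carry. In whole organs a change in cell numbers and a change in RNA per cell cannot be told apart. A ratio carries no expression level, so the tissue labels were not checked against marker levels. The sample labels name spleen and thymus and were followed here, whereas the title and design text of the series name thymus and brain. Which organ the arrays called spleen here hold therefore rests on the sample labels alone.

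The numerator, the log base and the handling of the dye swap are not stated in the labels. The values were read as log2 of mutant over pool, already turned to the same direction on both arrays of a pair. In this reading the correlation between paired arrays ran from 0.052 to 0.424 in spleen. In thymus it ran from -0.440 to -0.249, so the thymus pairs did not repeat each other. If the pool is the numerator, every direction below is reversed. If the arrays with the mutant in Cy3 still had to be turned, 0 probes differed between the tissues at an adjusted p of 0.05, and the direction was kept at 537 of the 601 probes described next, against 59.05% of all probes. On the 12 arrays 20046 to 20639 probes had a usable value, after 25 to 137 placeholder values per array were set to missing. Array medians lay between -0.011 and 0.039. The files give no intensities, so the number of mice limits the precision.

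The mutant effect differed between the tissues at 601 of the 19381 probes measured in all 3 mice, which is 3.10% (limma, difference against 0, Benjamini-Hochberg adjusted p under 0.05). Such probes are called in what follows. The test covers the spread between mutant mice and not that between wild-type mice. The ratio was higher in spleen at 110 of them (0.568%) and lower in spleen at 491 (2.53%). Among called probes with a gene symbol, the largest differences were decreases in spleen at those of Fndc10, the signalling ligand Wnt7a and the transcription factor Gata2, and increases at those of the glutathione transferase Gsto1 and the selenium carrier Selenop. The size of the ratio was larger in spleen than in thymus at 601 of the 601 probes, against 83.3% of all tested probes. At the 601 the median size was 0.74 in spleen and 0.058 in thymus. These probes were chosen for the difference itself, so this is a description. At 198 of them (32.95%) the tissues had opposite signs, against 39.89% of all tested probes. At 25 of the 601 the difference exceeded 1, which is 2-fold, with 9 higher and 16 lower in spleen.

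All 601 calls lay close to the threshold, at adjusted p-values in limma of 0.0449 to 0.0499, and the calls depended on how the test was set. No probe passed under 14 of 20 alternatives, including the loss of any 1 mouse (lowest adjusted p 0.085 without mouse 1, 0.0624 without mouse 3 and 0.254 without mouse 4) and the removal of the last stretch of probe IDs (0.055). Under those 14 alternatives 540 to 4736 probes had an unadjusted p under 0.05, against 4602 in the fit as reported. Without the pairing of tissues by mouse, as 2 groups of 3, limma called 2041 probes, 760 higher and 1281 lower, and 587 of the 601 were among them.

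Each tissue was also tested alone in the same 3 mice. The spleen ratio differed from 0 at 2404 of the 19381 probes (12.4%), 974 higher and 1430 lower, and the thymus ratio at 0 (0%), where the lowest adjusted p in limma was 0.861 and 711 probes had an unadjusted p under 0.05. With the Cy3 arrays turned in thymus only, 0 thymus probes passed in limma as well (lowest adjusted p 0.114). In that setting 2110 probes had an unadjusted p under 0.05. The part of a ratio that changed with the dye was the Cy5 minus the Cy3 array, divided by 2, averaged over mice. Its median size in thymus was 0.083, above the 0.045 of the mean ratio. In spleen it was 0.129, below the 0.171 of the mean ratio. A thymus mean near 0 can thus average 2 opposed arrays, and does not show that the thymus was unchanged. Of the 601 probes, 600 were also called in spleen. These tests leave out the spread among wild-type mice, because each pool is a single sample. The same holds for the test of the difference. With the variance of the wild-type pool added, 0 probes passed for the difference (lowest adjusted p in limma 0.178). The median SD between mice over probes was 0.153 in spleen and 0.084 in thymus, and 0.183 for the difference, so subtracting the thymus did not narrow the spread. Deviations of the same mouse in the 2 tissues correlated at -0.057, -0.002 and -0.073 across probes in mice 1, 3 and 4.

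**Figure D1:**
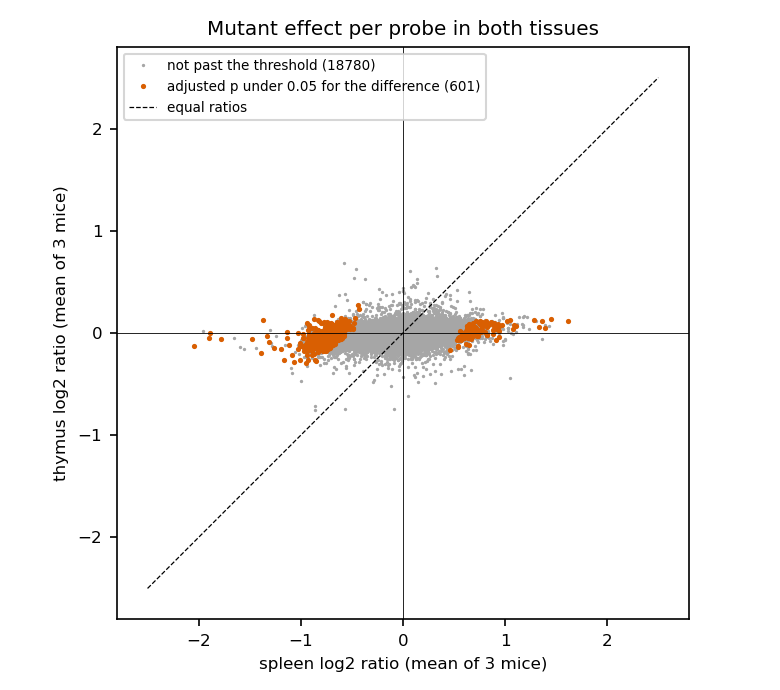
Mean log2 ratio of mutant over wild-type pool in spleen (horizontal axis) and thymus (vertical axis) over 3 mice, with a point per probe. The 601 probes that differed between the tissues lie far from 0 along the spleen axis and near 0 along the thymus axis, and the dashed line marks equal ratios. The thymus means average array pairs that were negatively correlated.

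The spleen arrays of mouse 2, which took no part in the selection, had the sign of the difference at 598 of the 601 probes (99.5%), against 74.8% of all 19317 tested probes measured there. The share was 491 of 491 at the lower probes and 107 of 110 at the higher ones. These arrays share the wild-type pool with the other spleen arrays, so the agreement covers the mutant mice and not the control. It concerns the spleen ratio alone and not the difference, because the thymus of mouse 2 was left out. The called probes also had larger spleen ratios, with a median size of 0.74 against 0.17 over all tested probes.

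Emp3, the gene named in the mutant's label, did not pass for a difference between the tissues at either of its probes. At Emp3 probe 4348 the spleen ratio was 0.03, 0.36 and -0.05 in mice 1, 3 and 4, and the thymus ratio -0.16, 0.02 and 0.01. The difference was 0.16 ± 0.20 (SD, n = 3; limma adjusted p = 0.452; exact two-sided sign-flip p = 0.5). At Emp3 probe 11822 the spleen ratio was -0.08, 0.79 and 0.07 and the thymus ratio 0.01, 0.11 and 0.04. Mouse 3 stood apart at this probe in spleen: the difference was 0.21 ± 0.41 (SD, n = 3; limma adjusted p = 0.5; exact two-sided sign-flip p = 0.75), and -0.029 without mouse 3. An exact test over 3 mice cannot give a p below 0.25. The stretch of transcript under each probe is not known here, so these values do not check the mutation. The relatives Emp2, a membrane protein of epithelia, and Pmp22, a component of myelin, did not pass either. Emp2 was at -0.04 and -0.12 at its 2 probes and Pmp22 at -0.22, where mouse 3 alone was at -0.54.

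Among the 12 named probes with a higher mutant effect in spleen, Selenop had the most even values. Selenop encodes selenoprotein P, which carries selenium in plasma. Its spleen ratio was 1.49, 1.22 and 1.30 in mice 1, 3 and 4, and its thymus ratio 0.15, 0.003 and 0.01. The 2 tissues were separated on every array, and the difference of 1.28 ± 0.06 (SD, n = 3), or 2.43-fold, passed in limma (adjusted p = 0.0449). Gsto1, an enzyme of glutathione conjugation and reduction, was at 0.99, 1.45 and 1.91 in spleen and at 0.14, 0.17 and 0.10 in thymus. Its difference of 1.31 ± 0.48 (SD, n = 3) was the largest of an annotated called probe in this direction, but the mice differed, and the Cy5 spleen array of mouse 1 read 0.33 where its Cy3 array read 1.65. Arpc5l, a subunit of the Arp2/3 complex that nucleates actin branches, was at 1.26, 1.16 and 1.44 in spleen and at 0.23, 0.05 and 0.10 in thymus.

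Ifnar2, part of the receptor for type I interferons, was at 1.37, 0.90 and 0.95 in spleen and at 0.21, -0.09 and -0.001 in thymus. The spleen values lay above all thymus values by more than the spread in either tissue. Faf2, which acts in the degradation of proteins from the endoplasmic reticulum, differed by 1.04 ± 0.11 (SD, n = 3), and Tnnc2, the calcium-binding troponin of fast muscle, by 1.01 ± 0.10 (SD, n = 3). The remaining 6 of the 12 named higher probes differed by 0.81 to 0.89. They were annotated to the proton channel gene Hvcn1, the lysosomal transporter gene Spns1, the embryonic globin gene Hba-x, Nsmaf, whose product binds a tumour necrosis factor receptor, the lactate dehydrogenase gene Ldha, and 1700029I15Rik. Over all 12, the thymus values of single mice stayed between -0.14 and 0.26.

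Among the 12 named probes with a lower mutant effect in spleen, Fndc10 and Wnt7a had the largest differences and also the widest spread. Fndc10, which encodes a fibronectin domain protein, was at -2.11, -1.26 and -2.77 in spleen and at -0.23, -0.03 and -0.12 in thymus. Wnt7a was at -1.92, -1.06 and -2.68 in spleen and at -0.18, 0.05 and 0.12 in thymus. In both, mouse 4 was lowest and mouse 3 highest in spleen, and the differences were -1.92 ± 0.71 and -1.88 ± 0.85 (SD, n = 3). Gata2, which controls genes of blood stem cells and mast cells, was at -1.08, -1.38 and -1.65 in spleen and at 0.59, -0.09 and -0.13 in thymus. The thymus value of mouse 1 was the highest in thymus among the 24 named probes, and the Gata2 difference was -1.50 ± 0.19 (SD, n = 3; limma adjusted p = 0.0449).

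Usp25, a deubiquitinating enzyme, was the most even of the 12 named lower probes, at -1.0, -0.92 and -0.90 in spleen and at 0.14, 0.10 and 0.06 in thymus. Its tissues had opposite signs in all 3 mice, and the difference was -1.04 ± 0.09 (SD, n = 3). Ddx11, a DNA helicase of chromosome cohesion, was also negative in spleen and positive in thymus in all 3 mice, with a difference of -0.94 ± 0.17 (SD, n = 3). Apbb3, a binding partner of the amyloid precursor protein, and Crygb, a lens crystallin, differed by -1.15 and -1.09. Both were weakest in mouse 4, as was the ribosomal protein gene Rps6 at -0.97. Art5, an ADP-ribosyltransferase, and Ifrd2, a regulator of translation, differed by -1.01 and -0.99 and were weakest in mouse 1 in spleen. Tm2d2 and Rnf31, which encodes the catalytic subunit of the linear ubiquitin ligase, completed the 12, with differences of -0.96 each. Rnf31 was at -0.25 in the thymus of mouse 1 and at 0.35 and 0.27 in mice 3 and 4.

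At 24 of these 24 probes all 6 spleen arrays had the sign of the difference, with the mutant in either dye. At 18 of them the 6 spleen arrays did not overlap the 6 thymus arrays, and the 6 with overlap were Gsto1, Hvcn1, Spns1, Ldha, Art5 and Rnf31. The probes were selected on these values, so the counts carry no test, and the same counts over all probes were not made. The spleen ratio of mouse 2 had the same sign at 24 of 24, from 0.46 for Hvcn1 to 1.52 for Selenop at the higher probes and from -2.55 for Fndc10 to -0.71 for Ddx11 at the lower ones.

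**Figure D2:**
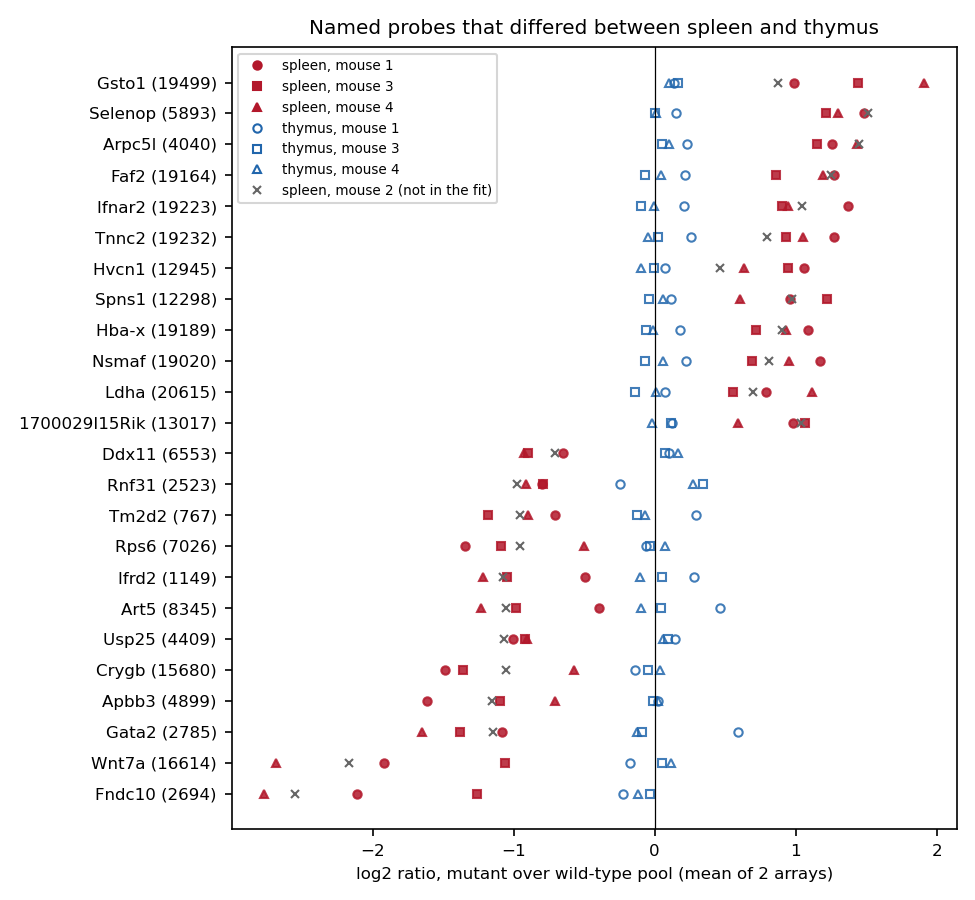
Log2 ratio of mutant over wild-type pool for the 24 named probes (vertical axis, probe ID in brackets), with a symbol per mouse; filled red is spleen, open blue is thymus, and the grey cross is the spleen of mouse 2, which was not in the fit. Most thymus values lie near 0, and the highest are 0.59 for Gata2 and 0.47 for Art5, both in mouse 1. The spleen values of all mice lie on the same side of 0 for each probe.

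**Figure D3:**
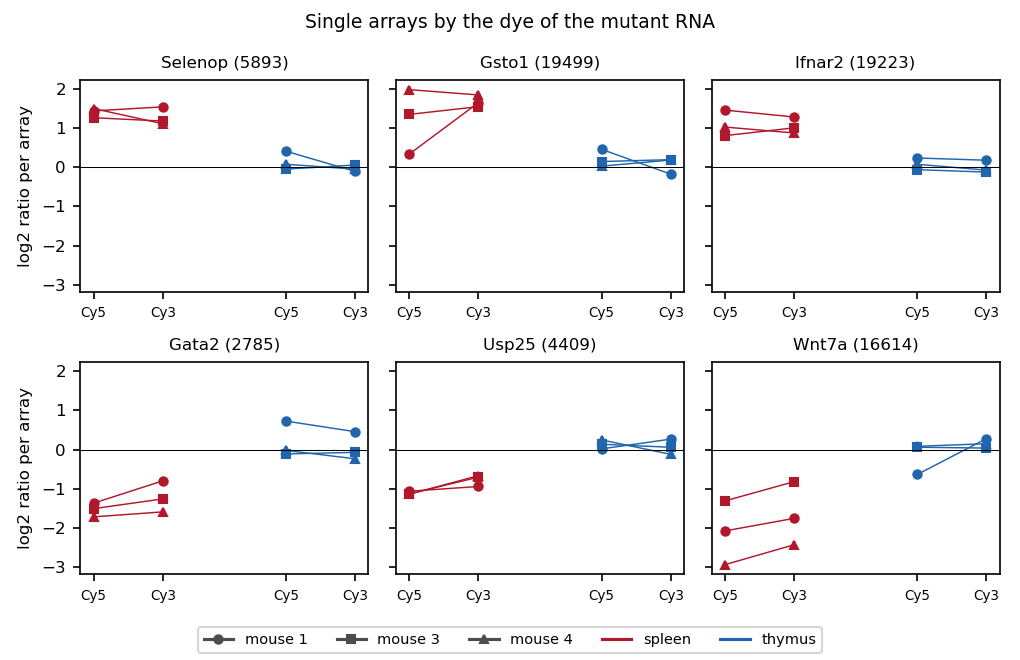
Log2 ratio on each single array for 6 of the named probes, with the dye of the mutant RNA on the horizontal axis and a line joining the 2 arrays of a mouse. In spleen (red) both dyes gave the same sign for each mouse, and for Gsto1 the Cy5 array of mouse 1 read 0.33 against 1.65 in Cy3.

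The names of these genes were not borne out by other probes of the same gene. Of the 24 named probes, 10 genes had 17 other tested probes, of which 7 differed in the direction of the named probe. Of the 17, 0 passed the threshold in limma. The lowest adjusted p in limma, 0.0757, was at an Hvcn1 probe with the opposite direction (-0.43). The second Gata2 probe differed by 0.09 and the second Rps6 probe by 0.0065, against -1.50 and -0.97 at the named probes. The other Ifnar2 probes were at -0.07 and -0.02 and the other Faf2 probes at -0.14 and -0.34. Those of Gsto1 were at 0.41 and 0.07, and that of Wnt7a was at -0.41. Across all 4091 pairs of probes of the same gene more than 400 IDs apart, Spearman's rho of the difference was -0.0037, while it was 0.141 over 18364 pairs of neighbouring IDs. These are correlations across probes of the same arrays and are given as a description. Each gene name therefore stands for the probe that carries it, and not for an established transcript.

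The lower calls were concentrated at the end of the probe list. Of 499 tested probes with an ID above 20250, 114 were called (22.9%), 110 of them lower in spleen, against 487 of 18882 (2.58%) among the other IDs. This stretch was chosen after its values were seen, as the run of 50-ID windows up to the end with at least 10% called in each. Its median spleen ratio was -0.41, -0.53 and -0.45 in mice 1, 3 and 4 and -0.56 in mouse 2, and its median thymus ratio 0.05, -0.11 and -0.11. Low spleen ratios there were thus common to all 4 mice. Of the probes in the stretch, 87.2% carried a gene symbol, against 60.9% elsewhere. Neighbouring annotated probes were in alphabetical order in 425 of 470 cases (90.4%), against 50.5% among the other IDs. The part of this ordering in the calls was not tested. Of the 24 named probes only Ldha lies in it, with a difference opposite to the stretch. Another group, IDs 19020 to 19499, holds 6 of the 12 named higher probes: Nsmaf, Faf2, Hba-x, Ifnar2, Tnnc2 and Gsto1. This range was set by the named probes themselves, after their values were seen. In the bins of IDs 18801 to 19200 and 19201 to 19600, 3.85% and 2.58% of tested probes were called, against 3.10% of all. Higher in spleen were 6 of 390 and 5 of 388 tested probes there, against 110 of all 19381.

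**Figure D4:**
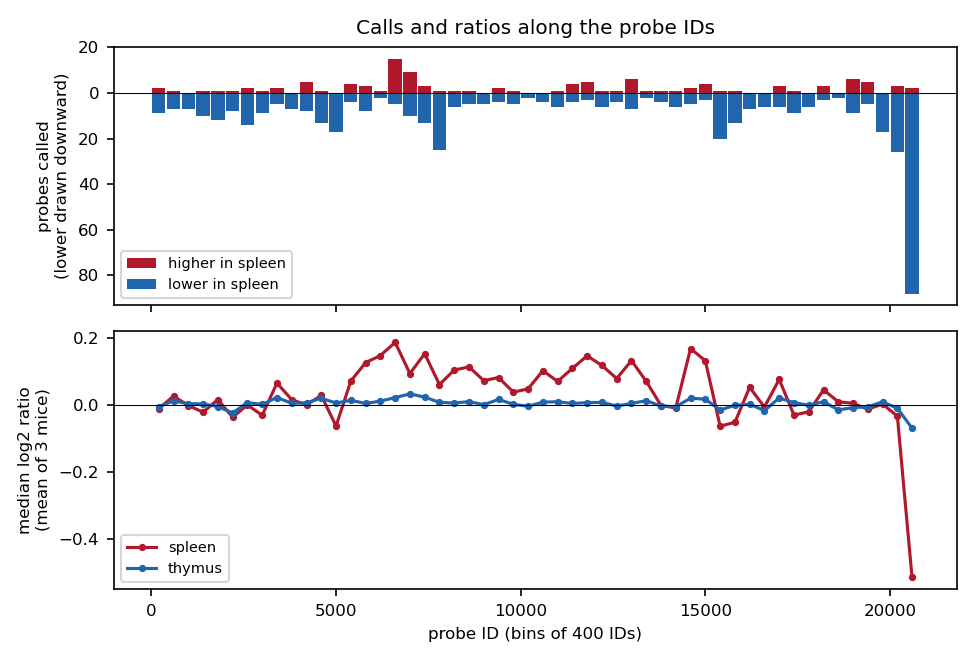
Number of called probes per bin of 400 probe IDs (upper panel, higher in spleen upward and lower in spleen downward) and the median log2 ratio of the bin in spleen and thymus (lower panel). In the last bin 88 probes were lower and 2 higher, and the median spleen ratio fell to -0.51 while the thymus median was -0.069.

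The signs of the mean ratio were counted over all probes. Spleen and thymus had the same sign at 11631 of 19381 probes (60.0%), opposite signs at 7731 and a mean of exactly 0 in a tissue at 19. Both were positive at 6747 probes and both negative at 4884. Spleen was positive and thymus negative at 4233, and the reverse held at 3498. Of the mean ratios, 56.7% were positive in spleen and 52.9% in thymus. Within single mice the same-sign share was lower, at 52.7%, 55.8% and 55.4% in mice 1, 3 and 4. The tissues share the mutant animals and the wild-type donors, so the share is a description and has no test. For the mean ratios the share was 69.9% with the Cy3 arrays turned in both tissues, 50.8% with them turned in thymus only and 50.3% in spleen only.

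Some probes had the same sign in every mouse and both tissues. They were picked by the smallest of the 6 values, so their signs are no finding. Among the 1557 probes positive in all 6, Atf4, which activates stress response genes, led with 0.64, 0.33 and 0.41 in spleen and 0.37, 0.44 and 0.18 in thymus. In mouse 3 the thymus ratio of Atf4 was above its spleen ratio, and the difference of 0.12 over the mice did not pass. Next were Sorbs3, a focal adhesion adaptor, the phosphodiesterase gene Pde4d, Ccdc186, the recycling endosome GTPase gene Rab11a and the kinase gene Nek8, with differences of 0.0025 for Nek8 to 0.50 for Ccdc186.

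Among the 833 probes negative in all 6, Lgi4, a secreted glial protein, was at -0.53, -1.02 and -1.02 in spleen and at -0.47, -0.76 and -1.03 in thymus. The neural globin gene Ngb followed it closely, at -0.55, -1.12 and -0.92 in spleen and at -0.35, -0.74 and -1.05 in thymus. In both genes mouse 1 had the smallest ratios in size in both tissues, and the differences of -0.10 and -0.15 did not pass (limma adjusted p = 0.582 and 0.52). Calb1, a calcium-binding protein, the zinc finger gene Zfp451, the kinase gene Cdk10 and the ligand gene Wnt1 had differences of -0.24 to -0.61, and the lowest adjusted p among the 6 was 0.0697 for Zfp451.

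Opposite signs in all 6 values were found at 359 probes with spleen positive and at 396 with spleen negative. Of the 6 probes named from each, only Ccdc113, a coiled-coil protein of cilia, passed: it was at -0.56, -0.61 and -0.75 in spleen and at 0.10, 0.11 and 0.13 in thymus, a difference of -0.75 ± 0.11 (SD, n = 3; limma adjusted p = 0.0449). The kinase gene Prkaca was at -0.24, -0.66 and -0.36 in spleen and at 0.27, 0.15 and 0.12 in thymus, and its difference of -0.60 just missed the threshold (limma adjusted p = 0.0547). Tpi1 of glycolysis, the calmodulin gene Calm2, Oxct1 of ketone use and the proteasome subunit gene Psmb4 differed by -0.39 to -0.65 and did not pass at these probes. On its gene mean over 2 probes Calm2 did pass (-0.59, limma adjusted p = 0.0472). In the other class the centriole gene Cep135, Pnpt1, an RNA-processing enzyme of mitochondria, the homeobox gene Cdx1, the clathrin adaptor gene Ap1m2, the nuclear pore gene Nup153 and Taf11 of TFIID differed by 0.39 to 0.69, with adjusted p-values in limma of 0.0648 to 0.124. At 3 of these 6 probes, Cep135, Pnpt1 and Cdx1, the spleen of mouse 2 was slightly negative, and in the class with spleen negative it was positive at Tpi1 (0.04) and Calm2 (0.14).

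Gene lists were described on the mean of each gene's probes, taken over those with a value in the given mouse and tissue. A gene's mean can therefore rest on different probes in different mice. Of 8619 genes measured in all 3 mice, 249 differed between the tissues (2.89%; limma adjusted p under 0.05), 38 higher in spleen (0.441%) and 211 lower (2.45%), and the median difference of all genes was 0.03. The 20 lists together hold 526 tested genes, of which 17 were called (3.23%), 4 higher and 13 lower, a share near the background. Of these 17 genes, 8 have a probe above ID 20250, where low spleen ratios were common: Birc3, Casp9, Cd28, Hspa1b, Lamb1, Psmd12, Tbx1 and Thbs1. Of all 249 called genes, 64 have a probe there.

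Of 7 genes of natural killer and cytotoxic cells, 1 was higher and none lower, with a median difference of 0.29, which turned to -0.05 with the Cy3 arrays turned in both tissues. An unadjusted p under 0.05 was reached by 6 of the 7, in both directions, against 23.4% of all genes. Nkg7, a protein of cytotoxic granules, was at 0.90, 0.69 and 0.67 in spleen and at 0.18, 0.15 and 0.03 in thymus, and its difference of 0.63 ± 0.09 (SD, n = 3) passed (limma adjusted p = 0.0445). With the running median of neighbouring IDs removed it was 0.33. Cst7, an inhibitor of granule proteases, was at 0.62, 0.54 and 0.61 in spleen and at 0.14, 0.11 and 0.10 in thymus, and missed the threshold at a difference of 0.48 (limma adjusted p = 0.0567). Gzma differed by 0.46 and Ccl5 by 0.29, while Gzmm, Il2rb and Fasl were at -0.14 to -0.39. Of these 7 genes, 4 were thus above 0 and 3 below. Of 17 T cell genes 1 was lower: the costimulatory receptor gene Cd28, at -0.68 ± 0.15 (SD, n = 3), with a probe in the last stretch of IDs and a difference of -0.38 with the running median removed. Lat, an adaptor of the T cell receptor, was at 0.37 and did not pass.

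None of the 13 B cell genes, 19 macrophage genes, 17 erythroid genes or 16 granulocyte and mast cell genes passed. Their median differences were 0.01, -0.04, 0.07 and -0.01. The B cell genes with the smallest p were Ms4a1, which encodes CD20, at 0.38 and the activation marker gene Cd83 at 0.21. In the macrophage list the complement gene C1qc was at 0.49 and the adaptor gene Tyrobp at -0.53, so that its members went both ways. The heme synthesis genes Uros and Ppox were at 0.54 and 0.49. Lcn2, an iron-binding protein of granules, was at 0.47, and Cebpe, a transcription factor of granulocyte maturation, at -0.42.

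Among the tissue lists, 1 of 18 thymic epithelial genes was lower. Tbx1, a transcription factor of pharyngeal development, was at -0.60, -1.08 and -1.12 in spleen and at -0.10, -0.17 and -0.25 in thymus, with a difference of -0.76 ± 0.23 (SD, n = 3), and -0.35 with the running median removed. Cldn3, a tight junction protein, was at -0.47 and did not pass. Of 28 genes of stroma and matrix 2 were lower. Thbs1, a matrix glycoprotein, differed by -0.80 ± 0.06 (SD, n = 3) and the laminin chain gene Lamb1 by -0.64 ± 0.08 (SD, n = 3). The differences were -0.47 and -0.17 with the running median removed. Of 24 skeletal muscle genes 1 was higher and 2 lower: Tnnc2 at 1.01, against the slow troponin gene Tnni1 at -0.69 ± 0.19 (SD, n = 3) and the myoglobin gene Mb at -0.53 ± 0.04 (SD, n = 3). Mb was named after its value was seen. None of 16 adipocyte genes passed; Adipoq was at -0.43 and Cidec at 0.50.

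Of 25 apoptosis genes 2 were lower and none higher, and the median difference was -0.15, with 12 genes above 0 and 13 below. The median turned to 0.14 over the 20 genes left without probe IDs above 20250, and to 0.06 with the running median removed. Birc3, an inhibitor of cell death, was at -0.55, -1.10 and -1.09 in spleen and at 0.02, -0.23 and -0.25 in thymus, a difference of -0.76 ± 0.16 (SD, n = 3). Casp9, the initiator caspase of the mitochondrial pathway, was at -0.53, -0.67 and -0.77 in spleen and at 0.13, -0.14 and -0.18 in thymus, a difference of -0.59 ± 0.07 (SD, n = 3). Their probes lie in the last stretch of IDs, as do 14 of the 41 probes of this list. With the running median removed the differences were -0.62 for Birc3 and -0.22 for Casp9.

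Of 48 genes of the cell cycle and replication 1 was lower, the replicative helicase gene Mcm5 at -0.72 ± 0.15 (SD, n = 3). The mitotic checkpoint gene Mad2l1 was at -0.53 and did not pass. None of 57 cytosolic ribosomal protein genes passed on the gene mean: Rps6 was at -0.48 over its 2 probes and Rpl31 at 0.40. Of 54 genes of the respiratory chain and ATP synthase 1 was higher, the complex I gene Ndufb9 at 0.76 ± 0.10 (SD, n = 3), and Cox5b at 0.54 did not pass. Of 35 proteasome genes 1 was lower, Psmd12 at -0.74 ± 0.06 (SD, n = 3), or -0.35 with the running median removed, and Psmd2 at -0.52 did not pass. Both belong to the regulatory particle that feeds proteins into the proteasome.

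Of 24 genes of the heat shock and unfolded protein response 2 were lower: the small chaperone gene Hspb1 at -0.73 ± 0.12 (SD, n = 3) and Hspa1b, which encodes an inducible HSP70, at -0.54 ± 0.06 (SD, n = 3). With the running median removed Hspa1b was at -0.32. Hspb1 was at -0.83, -0.68 and -0.64 in spleen and at 0.04, -0.01 and 0.02 in thymus, so the difference lay in the spleen ratio. Of 40 selenoprotein and glutathione genes Selenop was the only one called, and Gstm2 at 0.52 did not pass. None of 28 interferon response genes passed, with Ifi27 at 0.64 and Ifngr2, a chain of the type II receptor, at 0.45. None of 17 glucocorticoid response genes passed, with Lcn2 at 0.47 and the clock gene Per1 at 0.37. Of 30 genes in the list of PMP22, claudin and tetraspanin membrane proteins, 1 was lower, a tetraspanin and no member of the EMP3 family: Cd63 was at -0.70, -0.58 and -0.51 in spleen and at -0.06, -0.03 and 0.09 in thymus, a difference of -0.60 ± 0.05 (SD, n = 3).

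**Figure D5:**
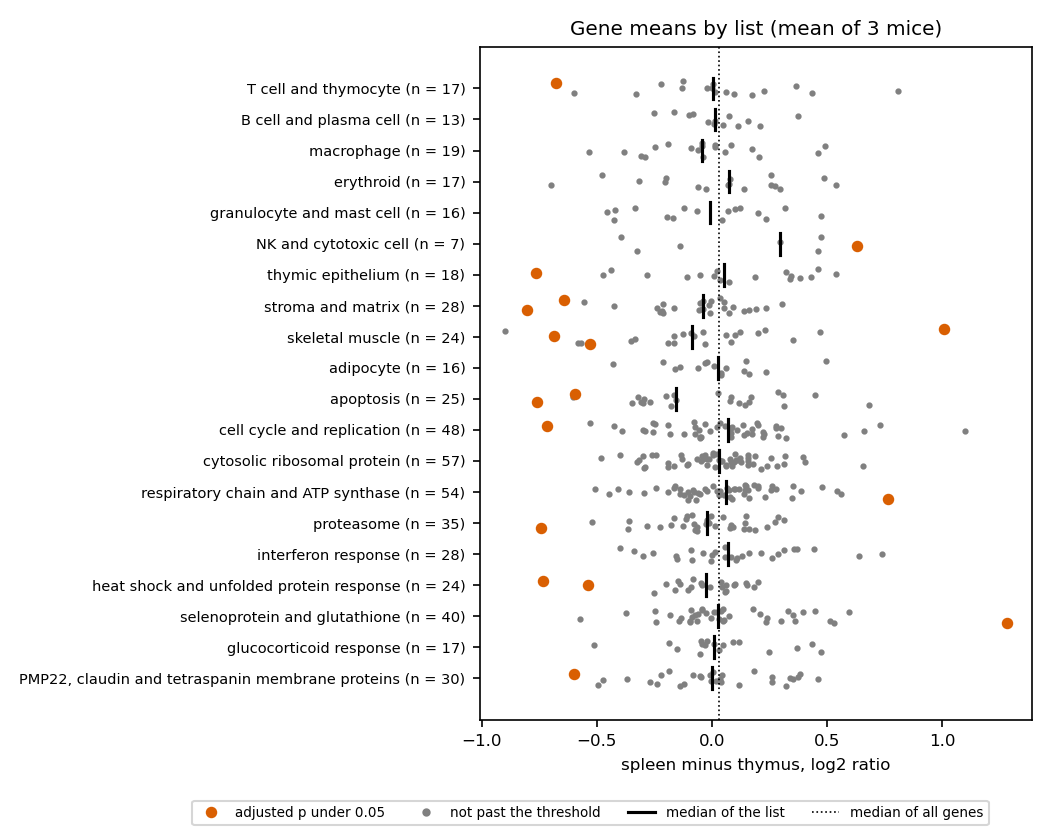
Difference between spleen and thymus in the mutant log2 ratio (horizontal axis, mean of 3 mice) for the genes of each list, with a point per gene, called genes in orange, a bar at the list's median and a dotted line at the median of all genes, 0.03. Called genes lie at the edges of their lists, from -0.80 for Thbs1 to 1.28 for Selenop, and most list medians lie close to the median of all genes.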

How the data were processed

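Log2 ratios of 16 two-colour arrays were used as deposited by the authors in the series' value table; how images were read and signals normalized, and the genome build, is not stated in the labels. RNA input was 20 µg per labelling, per the labels' protocols. The log base was read from the size of constant placeholder values. Values above 10 in size were set to missing, the 2 arrays of a mouse were averaged where both had a value, and probes with 3 within-mouse differences were tested with limma 3.58.1 (R 4.3.3; intercept only, eBayes, Benjamini-Hochberg at 0.05 over all 19381 probes). Each tissue's ratio and the gene means were fitted in the same way. The mouse pairs the tissues because the labels give both tissues the same animals. Within a tissue each mouse gave a dye-swapped pair of arrays, so the mouse and not the array is the replicate. The fit was tested on simulated data with independent normal values. These lack the shared pool and the likeness of neighbouring IDs, so that test says nothing about the calls made here.

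The platform annotation names 12771 of 20794 probes, all matched in RefSeq by gene number. Named were Emp3, Emp2 and Pmp22; per direction the 12 annotated called probes with the largest difference and the same sign in all mice; per sign class the 6 probes whose smallest of 6 values was largest; and per list the 2 genes with the smallest p. The mice, lists and rules were chosen with earlier results of these data known. A difference between log2 ratios is a ratio of folds.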

Additional observations from a re-analysis of the deposited data

Results flagged for a closer look

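A difference between the tissues, tested within mice, passed in limma at 601 probes and at 249 gene means, and both counts were 0 with any 1 of the 3 mice left out. Among the named probes higher in spleen this held for Gsto1 (1.31), Selenop (1.28), Arpc5l (1.16), Faf2 (1.04), Ifnar2 (1.04), Tnnc2 (1.01), Hvcn1 (0.89), Spns1 (0.89), Hba-x (0.88), Nsmaf (0.87), Ldha (0.84) and 1700029I15Rik (0.81). Among those lower in spleen it held for Fndc10 (-1.92), Wnt7a (-1.88), Gata2 (-1.50), Apbb3 (-1.15), Crygb (-1.09), Usp25 (-1.04), Art5 (-1.01), Ifrd2 (-0.99), Rps6 (-0.97), Tm2d2 (-0.96), Rnf31 (-0.96), Ddx11 (-0.94) and Ccdc113 (-0.75). On gene means it held for Selenop (1.28), Tnnc2 (1.01), Ndufb9 (0.76), Nkg7 (0.63), Thbs1 (-0.80), Tbx1 (-0.76), Birc3 (-0.76), Psmd12 (-0.74), Hspb1 (-0.73), Mcm5 (-0.72), Tnni1 (-0.69), Cd28 (-0.68), Lamb1 (-0.64), Cd63 (-0.60), Casp9 (-0.59) and Hspa1b (-0.54).

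Single arrays far from the others of their tissue were found in 6 of 66 groups of values, where chance gives about 5%. The thymus array of mouse 1 with the mutant in Cy5 had the widest spread of ratios of the 8 thymus arrays (SD over probes 0.429). The same array stood apart from the other 5 used in thymus at the probes of Selenop (0.41), Nsmaf (0.55), Fndc10 (-0.47) and Wnt7a (-0.64), each time in the direction of the spleen ratio. At Emp3 probe 11822 the Cy3 thymus array of mouse 3 read 0.24.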

How the results depend on the processing

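The 601 calls for the difference became 0, and the 249 gene calls became 0, with Cy3 arrays turned in both tissues or in spleen only, with Cy5 or Cy3 arrays alone, with placeholders kept, with medians at 0 and spreads made equal, with at least 2 mice, with the running median over 49 IDs removed, with the variance of the wild-type pool added, with limma's 1.2-fold test, and without probe IDs above 20250, a setting chosen after seeing the data. Leaving out each mouse in turn gave 0 to 0 calls for both. The lowest adjusted p under these settings ran from 0.055 to 0.966 over probes, and the cause was not tested. With no replicate block, so that the tissues were not paired by mouse, the counts were 2041 probes and 788 genes. They were 2840 and 1147 when spleen mouse 2 was added to that fit, 3292 and 1368 with mouse 2 in both tissues, and 1117 and 437 with Cy3 arrays turned in thymus only. Medians at 0 (649 probes) and robust eBayes (748) changed the count by less than 1.5 times.

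The 2404 spleen calls became 5301 with mouse 2, 1405 with the running median removed, 0 to 1256 without each mouse in turn, and 0 with Cy3 arrays turned in both tissues or in spleen only, with either dye alone, with the pool's variance and in the 1.2-fold test. Thymus gave 0 calls under all 18 alternatives, with 6 to 2871 probes at an unadjusted p under 0.05. The same-sign share of 60.0% was 69.9%, 50.8% and 50.3% with Cy3 arrays turned in both tissues, in thymus and in spleen, 63.8% with Cy5 and 66.6% with Cy3 arrays alone, and 57.1% to 58.4% without each mouse.

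Named differences changed sign almost only when Cy3 arrays were turned. Turned in both tissues, Gsto1 was at -0.30, Selenop at -0.027 (probe and gene mean), Arpc5l at -0.092, Faf2 at -0.15, Ifnar2 at -0.023, Tnnc2 at -0.18 (probe and gene mean), Hba-x at -0.12, Nsmaf at -0.19, Ndufb9 at -0.12, Art5 at 0.093 and Psmd12 at 0.024. Turned in spleen only, Gsto1 was at -0.37, Arpc5l at -0.31, Faf2 at -0.24, Ifnar2 at -0.015, Tnnc2 at -0.025 (probe and gene mean), Hba-x at -0.18, Nsmaf at -0.12, Tm2d2 at 0.0042, Tbx1 at 0.13, Thbs1 at 0.097, Lamb1 at 0.11, Tnni1 at 0.15, Birc3 at 0.22, Casp9 at 0.11, Psmd12 at 0.30 and Hspa1b at 0.047. Emp3 probe 11822 ran from -0.029 without mouse 3 to 0.36 without mouse 1. With 3 mice and no intensities, precision rests on the number of animals.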
